A study of Mus musculus with 52 samples.

Results

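Blood taken from tumor-bearing mice after treatment with a CD40 antibody (CD40 mAb) was compared with blood from vehicle-treated mice in 10 of the 52 libraries of the series, namely the 5 blood libraries labelled CD40 mAb and the 5 blood libraries labelled vehicle, chosen by tissue and treatment in the labels. All mice were hCD40tg animals, which carry human CD40, and all had been inoculated with MC38-CEACAM5, a mouse colon carcinoma line that expresses the human tumor antigen CEACAM5. Another blood group of 4 libraries came from mice given ATOR-4066, an antibody that binds both CD40 and CEACAM5, and all 14 blood libraries were fitted together. The labels used here give no dose, no time after treatment, no age and no sex. The labels do not say which cells express the human receptor, and mouse Cd40 transcripts, not the human ones, are what the table counts.

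CD40 is a receptor of the tumor necrosis factor receptor family on B cells, dendritic cells and monocytes, and its ligand on activated T cells or an agonist antibody starts NF-kappaB signaling in these cells. Interferons act on nearly every blood cell and induce a shared set of antiviral genes through STAT and IRF factors. Whole-blood RNA also holds transcripts of reticulocytes, the young red cells that still carry RNA, and of platelets, so that the share left for leukocytes depends on these cells as well. In bulk samples such as these, fewer cells of a type and less RNA per cell cannot be told apart.

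Total estimated counts were 33.5 to 40.3 M in the CD40 mAb libraries and 35.1 to 44.1 M in the vehicle libraries. Haemoglobin genes took 81.2, 78.6, 79.3, 81.0 and 77.5% of the counts in CD40 mAb libraries 1 to 5, against 73.8, 75.6, 76.0, 69.8 and 74.1% in vehicle libraries 1 to 5. Every CD40 mAb library lay above every vehicle library. The means were 79.5 ± 1.59% and 73.9 ± 2.44% (SD, n = 5 each), a difference of 5.66 percentage points with an exact two-sided permutation p of 0.00794, the smallest that 5 against 5 libraries allow. All other genes together therefore had 6.31 to 8.63 M counts in the CD40 mAb libraries and 8.54 to 11.6 M in the vehicle libraries. A list of 20 red cell genes other than haemoglobin took 15.9 to 21.3% of these remaining counts in CD40 mAb libraries, against 8.67 to 12.3% in vehicle libraries, again with no overlap. Red cell genes outside this list are not in these shares. Markers of other tissues were nearly absent: of 15 genes of epithelium, liver, skin, muscle and vessels 12 were too low to be tested, and Alb, Krt14 and Krt19 had no counts in any of the 10 libraries.

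**Figure D1:**
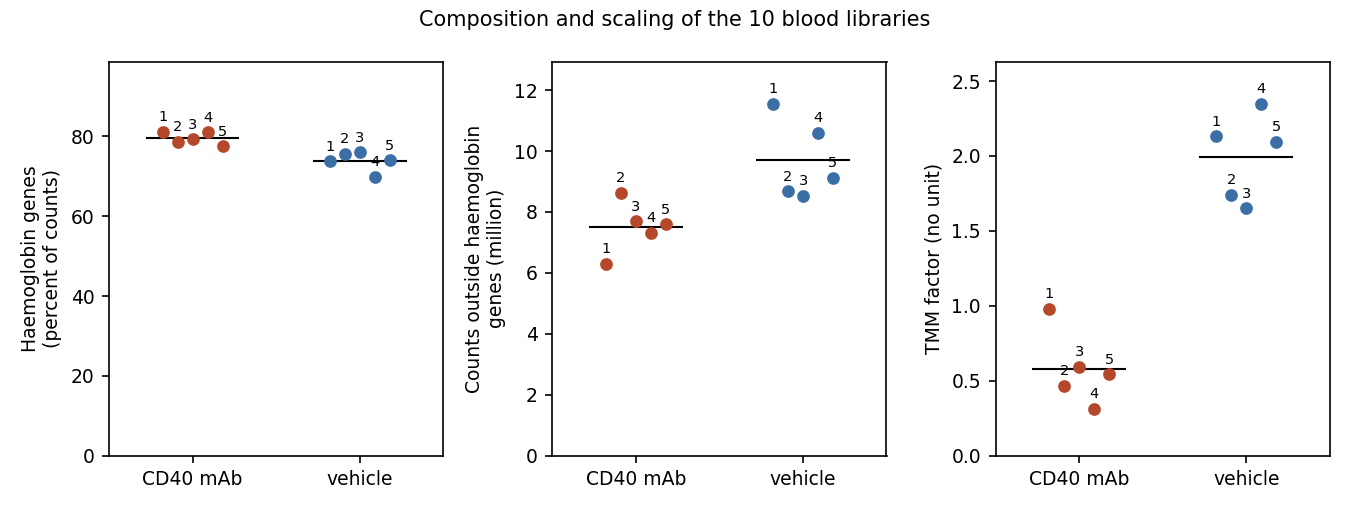
Haemoglobin share of all counts (percent), counts of all other genes (M) and TMM factor (no unit) in each blood library, with CD40 mAb left of vehicle 1 numbered point per library and a line at the group mean. The haemoglobin shares of 77.5 to 81.2% with CD40 mAb lie above those of 69.8 to 76.0% with vehicle, and CD40 mAb library 1 has a factor of 0.981 against 0.314 to 0.592 in the other 4.

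CD40 mAb library 1 stood apart from the other 4 of its group. The factors by which the TMM method scales a library's total so that most genes match were 0.981 in that library, 0.468, 0.592, 0.314 and 0.543 in CD40 mAb libraries 2 to 5, and 2.13, 1.74, 1.65, 2.35 and 2.10 in vehicle libraries 1 to 5. Of the 2710 genes called higher below, 886 were not above the vehicle range in CD40 mAb library 1, and of the 1509 called lower, 483 were not below that range in it. In the other 4 CD40 mAb libraries together, 2284 of the higher and 1217 of the lower genes were beyond the vehicle range in every library. Genes beyond the vehicle range were not counted over all tested genes. Counts of list members above, inside or below that range, given further on, therefore have no share over all genes beside them. Leaving this library out raised the number of genes called to 5433 of 12188 tested, 3124 of them higher and 2309 lower. These are the counts over all genes to set beside list counts without this library, here and below. Without it, 20 of 20 erythroid genes (median log2 change 3.02), 20 of 20 type I interferon-induced genes (median log2 change 3.37) and 17 of 23 amino acid stress genes (median log2 change 1.79) were called higher. Called lower were 17 of 17 B cell genes (median log2 change -1.14) and 10 of 10 MHC class II genes (median log2 change -1.05). What sets it apart was not tested.

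Each gene has a level and a change on 2 scales. Scaled CPM are counts per M (CPM) of the TMM-scaled library size, so that they set a gene against the typical gene of the library, and plain CPM are counts per M of all counts, haemoglobin included. Genes count as called below an adjusted p of 0.05 in edgeR's quasi-likelihood test with Benjamini-Hochberg adjustment over the 12184 genes tested, and all adjusted p-values of genes here are from that test. On the scaled level 4219 genes were called, 34.6% of those tested, of which 2710 (22.2%) were higher and 1509 (12.4%) lower with CD40 mAb, and the median log2 change over all tested genes was -0.05. On plain totals the median was -1.83, and 10972 genes (90.1%) were called, 318 of them higher (2.61%) and 10654 lower (87.4%). With the haemoglobin genes taken out of plain totals the median was still -1.46, with 499 genes higher and 9984 lower. Removing the haemoglobin genes before TMM scaling had little effect, with 4356 genes called, 2635 higher and 1721 lower. The 318 genes higher on plain totals were all higher on the scaled level too, and the 1509 genes lower on the scaled level were all lower on plain totals. Between them stood 1379 genes that were higher on the scaled level and lower as a share of all counts, and 1013 that were higher on the scaled level and not called on plain totals. Unless plain totals are named, the changes below are log2 changes on the scaled level, CD40 mAb over vehicle, ± the standard error, from 5 libraries each.

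**Figure D2:**
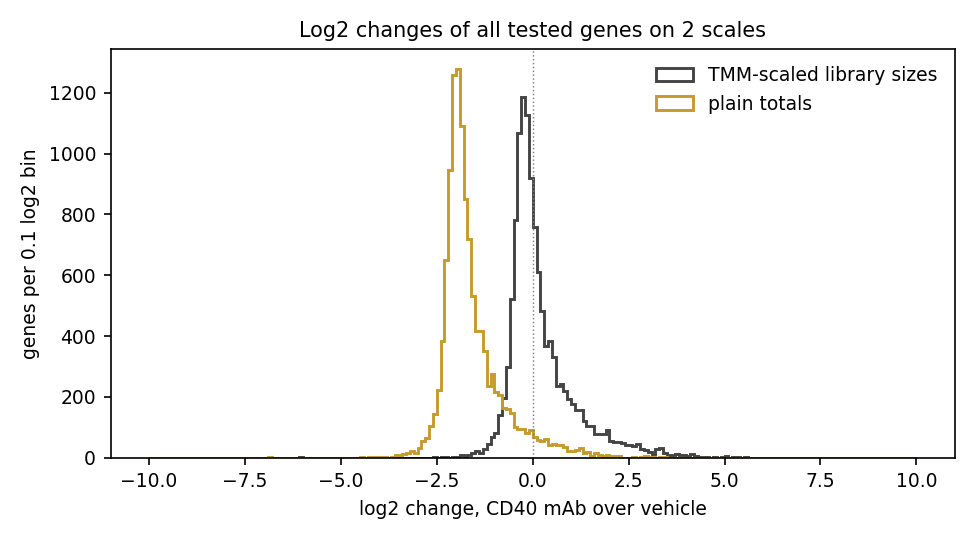
Histogram of the log2 change, CD40 mAb over vehicle, of the 12184 tested genes (genes per bin on the vertical axis), drawn once on the TMM-scaled level and once on plain totals. The scaled changes centre on a median of -0.05 and those on plain totals on -1.83.

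The largest rises joined 4 kinds of gene. Among called genes with an average level of at least 1 on the log2 CPM scale, the 15 with the largest rises included 4 genes that interferons induce (Isg15, Usp18, Ifi44 and Oas1e) and the interferon-inducible GTPase Gbp2, 3 genes of the response to amino acid shortage (Atf5, Asns and Mthfd2), 3 apolipoprotein L genes (Apol11a, Apol11b and Apol10a), and the red cell genes Rhag and Redrum, a noncoding RNA of erythroid cells. The 15 were completed by Ccdc92b, with a log2 change of 4.40 ± 0.73, and Crip2, with 4.40 ± 0.78, and the Redrum change was 4.52 ± 0.69. The 15 with the largest falls included the monocyte and macrophage genes Fn1, Apoe, Ccr2 and Klf4 and the B cell genes Fcer2a, Cd180 and Bcl11a. The falls were smaller than the rises: Fn1 had the largest, at -2.09 ± 0.30, and Ldlrad3 the fifteenth, at -1.16 ± 0.25, while the fifteenth rise was 4.40. The other falls were those of Arhgef37, Serpinb10, B3gnt8, Tiam1, Trf, Zcchc24 and Cyp27a1, between -1.69 and -1.17. Of these, the Cyp27a1 call (adjusted p = 0.0402) was lost without any 1 of CD40 mAb libraries 2 to 5 and vehicle libraries 1, 4 and 5 (adjusted p up to 0.0947).

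**Figure D3:**
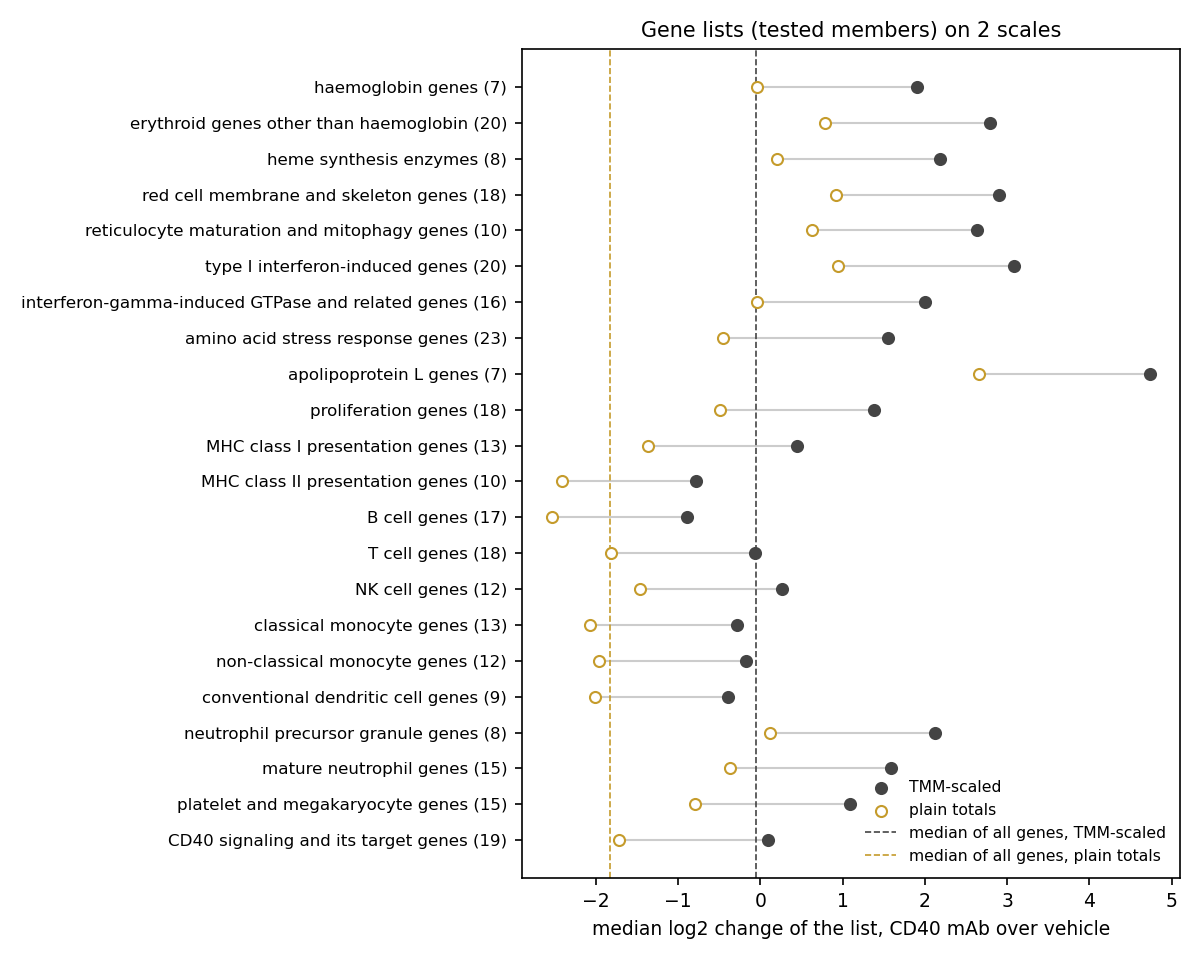
Median log2 change, CD40 mAb over vehicle, of each gene list (tested members in brackets), with 1 point for the scaled level and 1 for plain totals, and dashed lines at the medians of all tested genes. Red cell, interferon and amino acid stress lists lie far right of 0 on the scaled level and B cell and MHC class II lists left of it, and on plain totals every list drawn sits further left.

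Red cell genes were higher in the blood of CD40 mAb-treated mice as a group, and more so than the haemoglobins themselves. All 20 tested erythroid genes other than haemoglobin were called higher, against 22.2% of all genes, with a median log2 change of 2.80 on the scaled level and 0.79 on plain totals, where 16 of them were still higher and none lower. Rhag (ENSMUSG00000023926, chromosome 17, 40811126 to 40840754 in GRCm38), the Rh-associated glycoprotein of the red cell surface, had 1.34, 16.4, 7.04, 27.7 and 16.6 scaled CPM in CD40 mAb libraries 1 to 5, against 0.522, 0.598, 0.768, 0.437 and 0.299 scaled CPM in vehicle libraries 1 to 5. The groups did not overlap, and CD40 mAb library 1 was the lowest of its group. The log2 change was 4.70 ± 0.65 (adjusted p = 0.000177), and on plain totals 2.60 ± 0.39 (adjusted p = 8.38e-07). Epb42, protein 4.2 of the membrane skeleton, changed by 4.29 ± 0.56. Band 3, the anion exchanger encoded by Slc4a1, rose by 3.02 ± 0.42. Of 18 red cell membrane and skeleton genes, all were called higher with a median of 2.91, and 13 were also higher on plain totals while 2 were lower there.

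Heme synthesis followed the same direction. Alas2 (ENSMUSG00000025270, chromosome X, 150547375 to 150570638), the first enzyme of heme synthesis in red cells, had 18630, 23140, 21550, 24830 and 24550 plain CPM in CD40 mAb libraries 1 to 5, against 17050, 16740, 17200, 16170 and 16360 plain CPM in vehicle libraries 1 to 5. Each CD40 mAb library was above each vehicle library, with library 1 the lowest of its group. The Alas2 change was 2.42 ± 0.40 on the scaled level and 0.43 ± 0.16 on plain totals (adjusted p = 0.0116). All 8 heme synthesis enzymes were called higher on the scaled level, with a median of 2.18, and 3 on plain totals, with a median of 0.21. Cpox, an intermediate enzyme of the pathway, rose by 3.25 ± 0.50, and Fech, which inserts the iron, by 2.06 ± 0.32. Among genes of reticulocyte maturation, 9 of 10 were called higher, with a median of 2.63. They include Bnip3l, which tags mitochondria for removal, at 2.56 ± 0.35, and Gpx1, a glutathione peroxidase, at 3.33 ± 0.45. The transferrin receptor Tfrc, which reticulocytes shed as they mature, rose by 2.70 ± 0.36. Of 11 erythroid transcription factors, 8 were called higher and 1 lower, or 2 lower without CD40 mAb library 1. On plain totals 2 of them were higher and 3 lower, with a median of -0.51. Klf1 rose by 3.69 ± 0.61 and Gata1 by 2.50 ± 0.35, and Bcl11a, a repressor of fetal haemoglobin that B cells also express, fell by 1.22 on the log2 scale (SE 0.28, adjusted p = 0.0036).

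Set against all counts, 2 of the 7 tested haemoglobin genes were called, Hbb-bt and Hbq1b, both higher. Hbb-bs, an adult beta chain, had 377500, 379500, 378000, 410300 and 355900 plain CPM in the CD40 mAb libraries, against 332100, 332700, 321900, 295800 and 329700 plain CPM in the vehicle libraries, without overlap. Hba-a1, an adult alpha chain, had 153800, 147200, 147300, 144900 and 147500 plain CPM in the CD40 mAb libraries, against 149600, 155100, 157300, 147300 and 148900 plain CPM in the vehicle libraries, with overlap. On plain totals the log2 change was 0.24 ± 0.12 for Hbb-bs (adjusted p = 0.0685), 0.28 ± 0.13 for Hbb-bt (adjusted p = 0.0481) and -0.03 ± 0.13 for Hba-a1 (adjusted p = 0.798). Hbq1b, a theta-like chain, was higher on both, at 3.03 ± 0.41 on the scaled level and 0.97 ± 0.27 on plain totals. Its near copy Hbq1a had 28.1, 27.1, 31.03, 33.00 and 29.5 plain CPM with CD40 mAb, against 34.96, 37.5, 35.9, 31.7 and 32.8 with vehicle, and changed by -0.22 ± 0.24 on plain totals (adjusted p = 0.38). The embryonic chain gene Hbb-y, under 1 plain CPM in all 10 libraries, changed by -0.36 ± 0.40 on plain totals (adjusted p = 0.384). All 7 tested genes were called higher on the scaled level, with a median of 1.90, which was -0.03 on plain totals. The scaled-level call of Hbb-y was lost without CD40 mAb library 4, at 1.04 (adjusted p = 0.0586). The adult alpha pair, the adult beta pair and the theta pair are near-identical copies, so reads could be split between the members of a pair, and the single-gene values are uncertain to that extent.

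Most genes that type I interferons induce were higher in CD40 mAb libraries 2 to 5, and CD40 mAb library 1 did not follow for most of them. Of 20 tested, 19 were called higher and none lower, with a median of 3.08 on the scaled level, and on plain totals 12 were higher and 2 lower with a median of 0.95. Their summed level was 1271 to 23642 scaled CPM in the CD40 mAb libraries, against 573 to 954 in the vehicle libraries, and 1246 to 9379.9 against 1239 to 1574 plain CPM. On plain totals the sum in CD40 mAb library 1 was 1246, inside the vehicle range, and the other 4 libraries began at 4389. Member by member on the scaled level, 18 of the 20 genes were above the whole vehicle range in each of CD40 mAb libraries 2 to 5. In library 1, 3 were above that range (Isg15, Irf7 and Rsad2), 8 inside it and 9 below it. Ifit3, for example, a relative of Ifit1, had 1.34, 37.8, 12.9, 56.1 and 30.9 scaled CPM in CD40 mAb libraries 1 to 5, against 4.18, 5.49, 3.38, 3.25 and 2.7 in vehicle libraries 1 to 5, and its change was 2.86 ± 0.65 (adjusted p = 0.00485). Likewise library 1 was below and the other 4 were above the vehicle range for Rtp4, a receptor transporter protein gene that interferons induce, with 1.89, 57.99, 16.3, 73.5 and 66.03 scaled CPM with CD40 mAb, against 2.99, 4.75, 3.58, 3.88 and 2.42 scaled CPM with vehicle.

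Isg15 (ENSMUSG00000035692, chromosome 4, 156199424 to 156200818), a ubiquitin-like protein that is attached to other proteins, had 122, 4247, 900.2, 6461 and 2813 scaled CPM in CD40 mAb libraries 1 to 5, against 55.05, 77.7, 87.1, 43.9 and 40.2 scaled CPM in vehicle libraries 1 to 5. Every CD40 mAb library lay above every vehicle library, and the order within the group ran from library 1 over 3, 5 and 2 to 4, the reverse of the order of the TMM factors. On plain CPM the values were 119, 1986, 533, 2027 and 1527 with CD40 mAb, against 117, 135, 144, 103 and 84.3 with vehicle, in the same order, with library 1 now inside the vehicle range. The change was 5.58 ± 0.80 (adjusted p = 0.000137) and on plain totals 3.41 ± 0.65 (adjusted p = 0.000325). Irf7 (ENSMUSG00000025498, chromosome 7, 141262706 to 141266481), the factor that amplifies interferon production, had 146, 2696, 743, 2928 and 2619 scaled CPM with CD40 mAb, against 93.97, 135, 136, 78.5 and 58.2 scaled CPM with vehicle. Again library 1 was far below the other 4, at little more than the highest vehicle library, and the change was 4.19 ± 0.62 (adjusted p = 0.000149). Rsad2, which encodes the antiviral enzyme viperin, had 899 to 12390 scaled CPM with CD40 mAb, against 345 to 610.5 with vehicle, and changed by 4.05 ± 0.57.

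Other antiviral genes moved likewise but differed in size. Usp18, which removes Isg15 from proteins and dampens interferon signaling, rose by 5.56 ± 0.93, Ifi44 by 5.25 ± 0.87, and Ifit1, which binds viral RNA, by 4.15 ± 0.65. Of the 2'-5' oligoadenylate synthetase family, whose copies are similar in sequence, Oasl2 rose by 3.87 ± 0.60, Oas1e by 4.60 ± 0.61 and Oas3 by 2.77 ± 0.46. Ifit2 rose by 1.24 ± 0.27 on the scaled level and changed by -0.74 on plain totals. The 1 member that was not called was Mx1, an antiviral GTPase, with 0.639, 2.12, 1.95, 5.21 and 2.67 scaled CPM in CD40 mAb libraries 1 to 5, against 2.00, 1.57, 2.01, 1.79 and 2.00 scaled CPM in vehicle libraries 1 to 5. Its groups overlapped, with library 1 below and libraries 2, 4 and 5 above the whole vehicle range. The Mx1 change was 0.33 ± 0.34 (adjusted p = 0.488), 0.61 without CD40 mAb library 1 (adjusted p = 0.0368), and -1.67 on plain totals (adjusted p = 1.24e-05). Bst2, also called tetherin, rose by 3.32 ± 0.64, and Ube2l6, which transfers Isg15 to its targets and is abundant in red cells, by 2.65 ± 0.39.

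The promoters of several of these genes hold the letters of the interferon-stimulated response element, GAAANNGAAA, to which factors activated by interferons bind. The stretches below show where these letters lie in 4 of the genes that rose, read from RefSeq promoters of GRCm38.p6 on the gene's strand, 5' to 3', with the matches (on either strand, overlapping matches joined) in capitals. They lie at chr4:156200850-156200921 (minus strand) for Isg15, chr19:34640760-34640838 (plus strand) for Ifit1, chr12:26456538-26456597 (minus strand) for Rsad2 and chr3:142620579-142620638 (plus strand) for Gbp2.
Isg15: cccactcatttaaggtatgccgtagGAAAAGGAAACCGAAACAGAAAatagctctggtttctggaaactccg
Ifit1: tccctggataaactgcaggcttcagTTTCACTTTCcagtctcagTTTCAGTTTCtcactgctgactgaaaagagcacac
Rsad2: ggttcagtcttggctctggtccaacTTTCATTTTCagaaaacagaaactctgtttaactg
Gbp2: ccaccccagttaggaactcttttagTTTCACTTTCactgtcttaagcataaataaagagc
Isg15 holds 3 overlapping matches, the last of which begins 66 bases before the start site. Ifit1 holds 2 separate ones, and Rsad2 and Gbp2 hold 1 each. Over windows of 300 bases (250 before to 50 after the first listed start site of a gene), the letters occur on either strand in 943 of 27025 promoters, or 3.49%. They occur in 7 of the 14 promoters found for the type I interferon list (50%) and in 10 of the 12 found for the interferon-gamma GTPase list (83.3%), and in 2 of 11 of the B cell list (18.2%). The STAT site TTCNNNGAA occurs in 8.47% of all promoters, in 7 of 12 of the GTPase list (58.3%), in 2 of 14 of the type I interferon list (14.3%) and in none of 11 of the B cell list. The NF-kappaB site GGGANNTTCC occurs in 1.43% of all promoters, in 2 of 12 of the GTPase list (16.7%), in 1 of 14 of the type I interferon list (7.14%) and in none of 11 of the B cell list. Among 22 promoters of the amino acid stress list described below, 1 holds the interferon-stimulated response element (4.55%), 4 the STAT site (18.2%) and 1 the NF-kappaB site (4.55%). These shares describe letters in a window and say nothing of which factors were bound.

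GTPases and related genes that interferon gamma induces were also higher. All 16 tested members were called higher, with a median of 2.00 on the scaled level, but the median on plain totals was -0.04, with 5 higher and 4 lower there. In CD40 mAb library 1, 5 were above the vehicle range, 7 inside it and 4 below it, while all 16 were above it in each of the other 4. Gbp2 (ENSMUSG00000028270, chromosome 3, 142620602 to 142638008), a guanylate-binding protein that attacks vacuoles of intracellular microbes, had 4.68, 278, 29.9, 318 and 102 scaled CPM in CD40 mAb libraries 1 to 5, against 4.53, 6.62, 4.4, 5.03 and 4.4 scaled CPM in vehicle libraries 1 to 5. Library 1 lay inside the vehicle range and the other 4 above it. The change was 4.87 ± 0.86 (adjusted p = 0.000858), and 2.64 on plain totals (adjusted p = 0.00305). Igtp, an immunity-related GTPase, rose by 3.11 ± 0.50, Gbp7 by 3.39 ± 0.54, and Tgtp2, which has a close copy in Tgtp1, by 4.10 ± 0.69. Irf1, an early interferon gamma target, rose by 0.53 ± 0.15 (adjusted p = 0.0101) and changed by -1.33 on plain totals. Cd274, which encodes the checkpoint ligand PD-L1, rose by 1.73 ± 0.32 on the scaled level and changed by -0.30 ± 0.29 on plain totals (adjusted p = 0.328).

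MHC class I genes moved less. Of 13 tested, 6 were called higher and none lower, with a median of 0.44, and on plain totals the median was -1.37 with 12 lower and none higher. Over all genes 22.2% were higher on the scaled level, and 87.4% were lower on plain totals with a median of -1.83. B2m, the light chain of class I molecules, had 387, 1290, 749, 1272 and 798 scaled CPM with CD40 mAb, against 226, 324, 247, 304 and 198 scaled CPM with vehicle. The groups did not overlap and the change was 1.79 ± 0.33 (adjusted p = 0.00057), while on plain totals it was -0.19 ± 0.22 (adjusted p = 0.403). The heavy chain gene H2-D1 rose by 0.95 ± 0.24 on the scaled level and changed by -0.97 on plain totals, and the nonclassical H2-T23 rose by 1.11 ± 0.21 and changed by -0.85 on plain totals. H2-K1 (0.44 ± 0.17, adjusted p = 0.0538) and the peptide transporter gene Tap1 (0.31 ± 0.14, adjusted p = 0.0958) were not called. Without CD40 mAb library 1 both passed, at 0.48 (adjusted p = 0.0203) for H2-K1 and 0.41 (adjusted p = 0.00738) for Tap1.

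**Figure D4:**
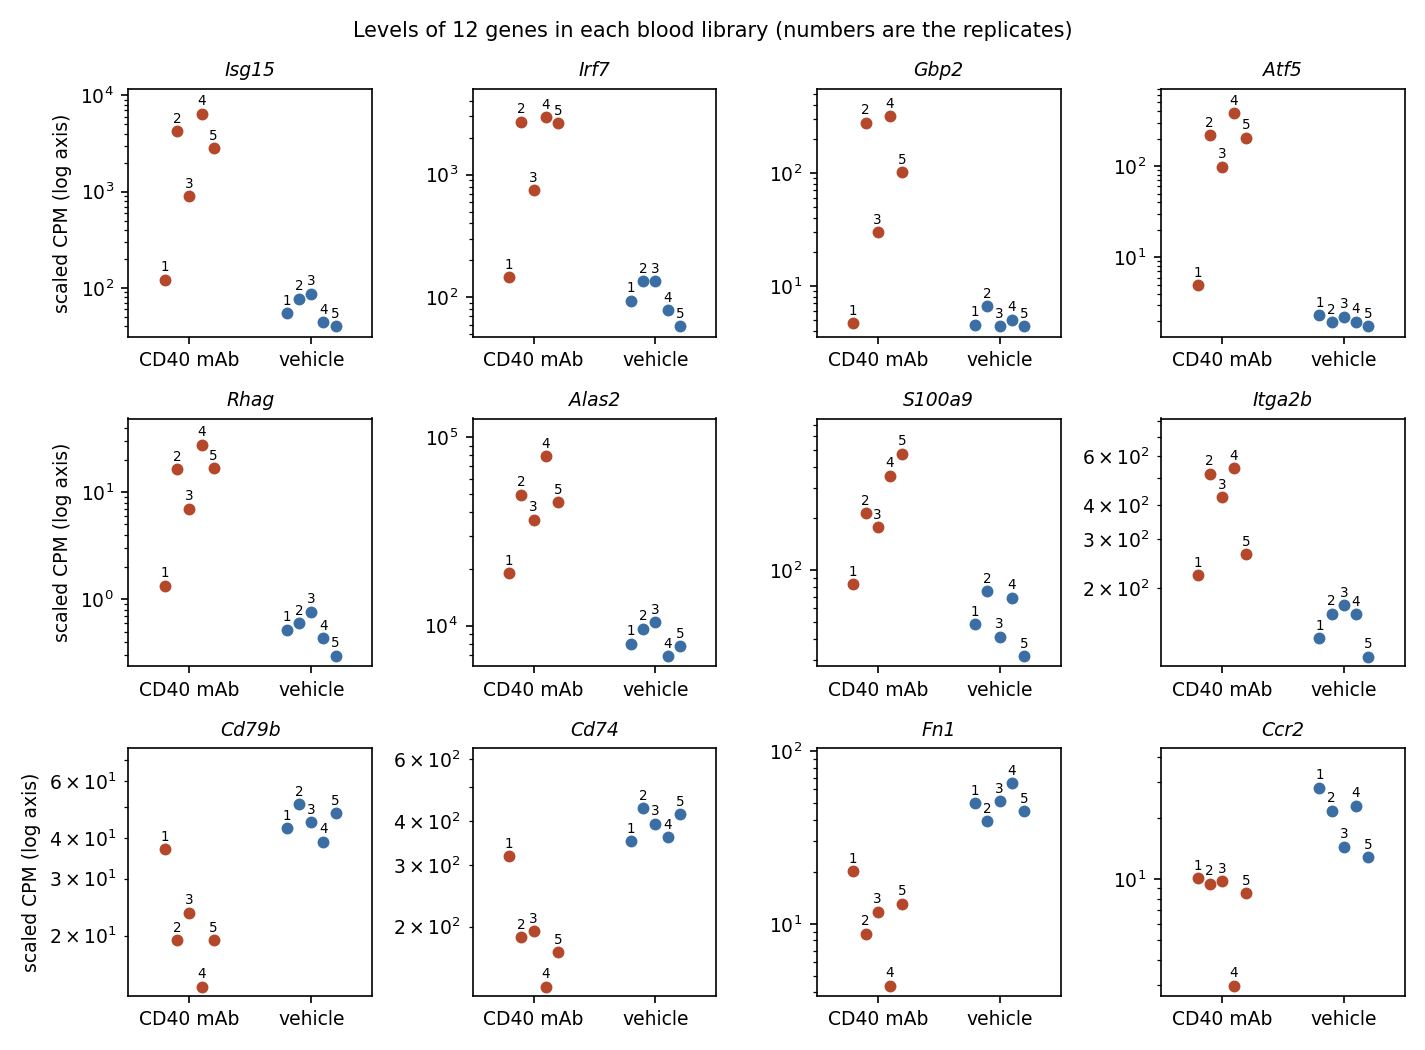
Scaled CPM (log axis) of 12 genes in each blood library, CD40 mAb left of vehicle, with 1 point per library and its number beside it. CD40 mAb library 1 lies nearest to the vehicle libraries for most of the genes, as for Gbp2 with 4.68 against 4.40 to 6.62 scaled CPM.

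Genes of the response to amino acid shortage held some of the largest changes. Atf5 (ENSMUSG00000038539, chromosome 7, 44812256 to 44816658), a transcription factor translated under stress, had 4.99, 218, 98.7, 382 and 205 scaled CPM in CD40 mAb libraries 1 to 5, against 2.31, 1.95, 2.23, 1.98 and 1.76 scaled CPM in vehicle libraries 1 to 5. Every CD40 mAb library was above every vehicle library and library 1 was by far the lowest of its group. Its change of 6.47 ± 0.82 (adjusted p = 0.000112) was the largest of the genes selected by size, and on plain totals it was 4.28 ± 0.61 (adjusted p = 1.41e-05). Asns (ENSMUSG00000029752, chromosome 6, 7675169 to 7693254), asparagine synthetase, had 0.669, 13.7, 7.81, 27.8 and 13.2 scaled CPM with CD40 mAb, against 0.213, 0.194, 0.324, 0.133 and 0.204 scaled CPM with vehicle, with no overlap and a change of 5.86 ± 0.80. Mthfd2, of mitochondrial folate metabolism, rose by 4.98 ± 0.72. Atf4, the factor that drives this program, rose by 3.31 ± 0.52 and its target Trib3 by 4.19 ± 0.86. Slc7a5 and Slc3a2, which together form an amino acid transporter, rose by 3.21 ± 0.43 and 3.14 ± 0.43. Eif2ak1, the kinase that slows translation when heme is short and that red cell precursors express, rose by 3.04 ± 0.46, and Ppp1r15a, a subunit of the phosphatase that opposes it, by 3.26 ± 0.50.

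Not every gene of this response was higher. Of 23 tested, 15 were called higher and none lower, with a median of 1.56, while on plain totals 10 were higher and 9 lower with a median of -0.45. The serine synthesis genes Phgdh, at -0.21 ± 0.18 (adjusted p = 0.368), and Psat1, at 0.01 ± 0.25 (adjusted p = 0.974), were not called. The letters TGATGNAA of the amino acid response element, to which ATF4 with a C/EBP partner binds, occur on either strand in 6 of the 22 promoters found for the list (27.3%) and in 4.06% of all promoters. Matches lie before the start site in 5 of these promoters and after it in that of Trib3. As 1 example of the 5, the match is shown for Pck2, a mitochondrial enzyme that rose by 2.63 ± 0.36, at chr14:55540138-55540195 (plus strand, GRCm38.p6, RefSeq).
Pck2: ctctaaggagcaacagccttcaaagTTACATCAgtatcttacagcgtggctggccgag
The capitals mark the 8 letters, read on the opposite strand, 103 bases before the start site.

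Apolipoprotein L genes, which encode lipid-binding proteins, and many cell cycle genes rose as well. Apol11b (ENSMUSG00000091694, chromosome 15, 77633946 to 77643286) had 345, 3202, 1186, 3772 and 3431 scaled CPM in CD40 mAb libraries 1 to 5, against 53.1, 81.3, 85.3, 85.3 and 52.9 scaled CPM in vehicle libraries 1 to 5, without overlap. Its change was 5.06 ± 0.63 (adjusted p = 0.000101) and on plain totals 2.98 ± 0.50, and it has a close copy in Apol11a, which changed by 5.60 ± 0.78. Apol10a rose by 5.08 ± 0.73, and of the 7 tested members of the family 5 were called higher, on both the scaled level and plain totals. None was called lower on the scaled level and 1 was on plain totals. Among 18 proliferation genes, 12 were called higher and none lower with a median of 1.38, while on plain totals 3 were higher and 7 lower with a median of -0.49. Mki67, a marker of cycling cells, had 9.06, 33.8, 21.4, 40.5 and 40.5 scaled CPM with CD40 mAb, against 5.4, 4.94, 6.35, 4.75 and 3.98 with vehicle, without overlap, and changed by 2.51 ± 0.33 (adjusted p = 0.000112). Ube2c, which acts at the end of mitosis and is also expressed in reticulocytes, rose by 3.10 ± 0.39, Rrm2, a subunit of ribonucleotide reductase, by 2.91 ± 0.33 and Ccna2, cyclin A2, by 2.66 ± 0.33. Pcna, the clamp of DNA replication, had 5.09 to 6.94 scaled CPM with CD40 mAb, against 5.15 to 6.83 with vehicle, and was not called (0.10 ± 0.12, adjusted p = 0.552). Erythroid genes moved in the same libraries, and their part in the rise of the proliferation list was not tested.

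B cell genes fell. Of 17 tested, 16 were called lower and none higher, against 12.4% of all genes, with a median of -0.89 on the scaled level and -2.54 on plain totals. Their summed level was 258 to 648 scaled CPM in CD40 mAb libraries, against 673 to 830.2 in vehicle libraries, and 80.9 to 635 against 1236 to 1739 plain CPM, where the groups did not overlap. Cd79b (ENSMUSG00000040592, chromosome 11, 106311341 to 106314762), a signaling chain of the B cell receptor, had 37.1, 19.4, 23.5, 13.9 and 19.4 scaled CPM in CD40 mAb libraries 1 to 5, against 42.95, 50.96, 44.8, 39.1 and 47.9 scaled CPM in vehicle libraries 1 to 5. All CD40 mAb libraries were below all vehicle libraries, with library 1 the highest of its group. The change was -0.99 ± 0.21 (adjusted p = 0.00157), -1.24 without CD40 mAb library 1, and -2.59 on plain totals. Fcer2a, the low-affinity IgE receptor CD23 of follicular B cells, had 26.5, 8.38, 12.04, 6.54 and 8.89 scaled CPM with CD40 mAb, against 32.4, 33.7, 32.8, 31.9 and 37.3 with vehicle. It was lower in every CD40 mAb library and changed by -1.42 ± 0.29 (adjusted p = 0.00167), or -1.90 without library 1. Pax5, the factor that fixes B cell identity, changed by -1.03 ± 0.21, Ms4a1, which encodes CD20, by -0.89 ± 0.21, and the immunoglobulin M heavy chain gene Ighm by -0.96 ± 0.23. Spib, a factor of B cells and plasmacytoid dendritic cells, changed by -0.88 ± 0.17. Plasma cell and germinal center genes did not move as a group, with 1 higher and 2 lower of 11 tested and a median of 0.08, which was -1.63 on plain totals. With CD40 mAb library 1 left out they had 2 higher and 3 lower. Irf4, a factor of activated B cells and plasma cells, changed by -0.97 ± 0.31, and Sdc1, which encodes the plasma cell marker CD138, by -1.07 ± 0.33. Both calls were lost without CD40 mAb library 2 or 5 (adjusted p up to 0.0621 for Irf4 and 0.0532 for Sdc1), and that of Irf4 also without vehicle library 3. Xbp1, a factor of secretory cells that other blood cells also use, rose by 0.86 ± 0.23 on the scaled level and changed by -1.12 on plain totals.

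MHC class II genes, which B cells and other antigen-presenting cells express, fell with them. Of 10 tested, 9 were called lower and none higher, with a median of -0.78, against 12.4% of all genes lower. All 10 were lower on plain totals, where 87.4% of all genes were lower too. The list's median there was -2.41, beside -1.83 over all genes. Cd74 (ENSMUSG00000024610), the invariant chain that guides class II molecules, had 317, 186, 194, 135 and 169.6 scaled CPM in CD40 mAb libraries 1 to 5, against 350.4, 434, 393, 359.9 and 418 scaled CPM in vehicle libraries 1 to 5. The groups did not overlap and the change was -0.96 ± 0.23 (adjusted p = 0.00466). Ciita, the master activator of class II genes, changed by -1.07 ± 0.21, H2-DMa, which helps load peptides, by -0.76 ± 0.15, and the class II alpha chain gene H2-Aa by -0.81 ± 0.21. How much of this fall sits in B cells and how much in other cells was not tested.

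Monocyte genes did not move together, and a few of them fell strongly. Of 13 classical monocyte genes, 2 were called lower and 1 higher, with a median of -0.28, while all 13 were lower on plain totals, with a median of -2.07 beside -1.83 over all genes. Without CD40 mAb library 1, 3 were higher and 2 lower, and with the haemoglobin genes removed 1 was higher and 3 lower. In CD40 mAb library 1, 11 of the 13 were below the whole vehicle range on the scaled level. The genes below it in all of the other 4 libraries at once were 2. That joint count is not comparable with the count of a single library, as single libraries of the 4 can hold more such genes. Fn1 (ENSMUSG00000026193, chromosome 1, 71585520 to 71653200), fibronectin, had 20.2, 8.75, 11.8, 4.39 and 13.1 scaled CPM in CD40 mAb libraries 1 to 5, against 49.8, 39.4, 51.4, 65.05 and 45.02 scaled CPM in vehicle libraries 1 to 5. Each CD40 mAb library was below each vehicle library, and the change of -2.09 ± 0.30 (adjusted p = 0.000123) was the largest fall of the genes selected by size. Ccr2 (ENSMUSG00000049103, chromosome 9, 124101950 to 124113557), the chemokine receptor by which monocytes leave the marrow, had 10.1, 9.49, 9.72, 2.98 and 8.51 scaled CPM with CD40 mAb, against 28.2, 21.7, 14.4, 22.97 and 12.8 with vehicle, again without overlap, and changed by -1.28 ± 0.28 (adjusted p = 0.00258). The called gene that was higher was Ly6c2, a surface marker of the classical subset, at 9.03 to 47.4 scaled CPM with CD40 mAb, against 11.4 to 21.3 with vehicle. Its change of 1.02 ± 0.33 (adjusted p = 0.0245) turned to -0.98 ± 0.28 on plain totals, and the call was lost when CD40 mAb library 2, 4 or 5 or vehicle library 3 or 5 was left out, with adjusted p-values of up to 0.0706. Among 12 non-classical monocyte genes, 2 were lower and 1 higher, with a median of -0.18. Cx3cr1, the fractalkine receptor, changed by -1.01 ± 0.26 (adjusted p = 0.00759) and Pou2f2, a factor shared with B cells, by -0.88 ± 0.21. The gene that rose was Cd36, a scavenger receptor that red cell precursors and platelets also carry, by 3.55 ± 0.49. Apoe changed by -1.52 ± 0.31 and Klf4, a factor of monocyte development, by -1.31 ± 0.28.

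Several dendritic cell genes fell at low counts. Flt3 (ENSMUSG00000042817, chromosome 5, 147330741 to 147400489), the growth factor receptor of dendritic cells and early progenitors, had 0.395, 0.212, 0.182, 0.0828 and 0.327 scaled CPM in CD40 mAb libraries 1 to 5, against 1.04, 0.791, 0.853, 0.946 and 0.964 scaled CPM in vehicle libraries 1 to 5. The groups did not overlap and the change was -1.81 ± 0.29 (adjusted p = 0.000189). Cd209a, a lectin of monocyte-derived and conventional type 2 dendritic cells, had 0.669, 0, 0.0454, 0 and 0.0546 scaled CPM with CD40 mAb, against 1.91, 1.23, 1.3, 1.44 and 1.4 with vehicle, so that 2 CD40 mAb libraries had no counts. The lectin gene Clec10a changed by -1.14 ± 0.32 and Irf8, a factor of dendritic cells and B cells, by -0.53 ± 0.14. Of 9 tested, these 4 were lower, 2 were higher (Itgax, which encodes CD11c, at 0.48 ± 0.17, and Fscn1, fascin of mature dendritic cells, at 1.64 ± 0.48), and the median was -0.39. On plain totals Itgax changed by -1.33 and Fscn1 by -0.22, and the Itgax call was lost without any 1 of CD40 mAb libraries 2, 3 and 5 and vehicle libraries 1, 3 and 5, with adjusted p-values of up to 0.111, and that of Fscn1 without CD40 mAb library 2 (adjusted p = 0.0547). Plasmacytoid dendritic cell genes had 1 higher, the interferon-induced Bst2, and 1 lower, Tcf4 at -0.66 ± 0.16, of 6 tested, and 1 higher and 2 lower without CD40 mAb library 1.

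Neutrophil genes rose relative to other genes but not as a share of all counts. All 15 mature neutrophil genes were called higher, with a median of 1.59 on the scaled level, while on plain totals the median was -0.37, with 1 higher and 2 lower. S100a9 (ENSMUSG00000056071, chromosome 3, 90692632 to 90695721), a subunit of calprotectin, had 83.3, 215, 178, 354 and 475 scaled CPM in CD40 mAb libraries 1 to 5, against 48.6, 75.2, 41.02, 69.3 and 31.7 scaled CPM in vehicle libraries 1 to 5. Every CD40 mAb library was above every vehicle library, and the change was 2.30 ± 0.43 (adjusted p = 0.000769). On plain CPM the values were 81.7, 100.4, 105, 111 and 258 with CD40 mAb, against 104, 131, 67.7, 163 and 66.4 with vehicle, with overlap and a change of 0.30 ± 0.30 (adjusted p = 0.336). The 1 gene higher on plain totals as well was Ly6g, the surface marker of mouse neutrophils, with 0.182, 2.01, 1.09, 3.14 and 4.04 scaled CPM with CD40 mAb, against 0.0533, 0.145, 0.154, 0.352 and 0.0543 with vehicle. Library 1 lay inside the vehicle range and the other 4 above it, and the change was 3.70 ± 0.66 on the scaled level and 1.67 ± 0.51 on plain totals (adjusted p = 0.0031). The chemokine receptor gene Cxcr2, which draws neutrophils to sites of inflammation, rose by 1.52 ± 0.33 on the scaled level and changed by -0.41 on plain totals. Of 8 tested granule genes made by precursors in the marrow, 5 were called higher on the scaled level, while on plain totals 2 were higher and 3 lower with a median of 0.12. The early granule genes Mpo, Elane, Prtn3, Ctsg, Fcnb and Ms4a3 were too low to test. The 2 higher on plain totals were Ltf, lactoferrin, at 3.54 ± 0.60 and 1.59 ± 0.40 on plain totals, and Ngp, at 3.61 ± 0.68 and 1.68 ± 0.49. Cd177, a neutrophil surface protein, was not called (0.02 ± 0.35, adjusted p = 0.979). Of 13 acute phase and activation genes, 12 were called higher with a median of 1.59, which was -0.29 on plain totals. Il1rn, the interleukin 1 receptor antagonist, rose by 2.13 ± 0.36, and Lcn2, lipocalin 2, by 2.36 ± 0.51.

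Platelet genes showed the same split between the scales. Of 15 tested, 14 were called higher on the scaled level, with a median of 1.10, and 11 were called lower on plain totals, with a median of -0.80. Over all tested genes 22.2% were higher on the scaled level. On plain totals 87.4% of all genes were lower, with a median of -1.83, so the platelet list fell less there than the typical gene. Itga2b (ENSMUSG00000034664, chromosome 11, 102453297 to 102470122), the platelet integrin that binds fibrinogen, had 222, 517, 425, 540.4 and 266 scaled CPM in CD40 mAb libraries 1 to 5, against 132, 162, 174, 161 and 113 scaled CPM in vehicle libraries 1 to 5, without overlap. On plain CPM it had 218, 242, 251.9, 169.6 and 144 with CD40 mAb, against 282, 282, 286, 378 and 237 with vehicle, with 3 of the 5 CD40 mAb libraries below the vehicle range. The changes were 1.41 ± 0.29 (adjusted p = 0.00149) and, on plain totals, -0.52 ± 0.23 (adjusted p = 0.0371). Pf4, the platelet chemokine, rose by 0.88 ± 0.26 on the scaled level and changed by -1.02 on plain totals, and Treml1, a receptor of platelet granules, rose by 1.71 ± 0.30 and changed by -0.20 on plain totals (adjusted p = 0.457).

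T cell genes kept their place relative to the typical gene. Of 18 tested, 1 was called higher and none lower, with a median of -0.07, and all 18 were lower on plain totals with a median of -1.81, close to that of all genes at -1.83. Their summed level was 139.8 to 188 scaled CPM with CD40 mAb, against 142 to 202 with vehicle, and 58.01 to 185 against 258 to 409 plain CPM. Cd3e, which encodes CD3 epsilon of the T cell receptor, had 7.42, 4.88, 5.91, 5.79 and 6.71 scaled CPM in CD40 mAb libraries 1 to 5, against 7.25, 8.45, 6.67, 6.66 and 5.39 scaled CPM in vehicle libraries 1 to 5. The groups overlapped and the change was -0.16 ± 0.13 (adjusted p = 0.375). The coreceptor genes Cd4 (-0.19 ± 0.14) and Cd8a (-0.06 ± 0.12) were not called either. The called gene, the costimulator Cd28, changed by 0.28 ± 0.11 (adjusted p = 0.0491) and by -1.49 on plain totals, and its call was lost with the haemoglobin genes removed (adjusted p = 0.069) and without any 1 of CD40 mAb libraries 1, 2, 3 and 5 and vehicle libraries 2, 3 and 5, with adjusted p-values of up to 0.128. None of 7 regulatory T cell genes was called on the scaled level by edgeR, DESeq2 or voom, with 1 at an unadjusted p under 0.05 in edgeR and a median of 0.14, and Foxp3 changed by -0.09 ± 0.16 (adjusted p = 0.679). The pan-leukocyte gene Ptprc, which encodes CD45, had 144, 115, 151, 110.5 and 159 scaled CPM with CD40 mAb, against 147, 151, 140.4, 159 and 140.3 with vehicle, and changed by -0.12 ± 0.17 (adjusted p = 0.615) and by -1.86 ± 0.28 on plain totals.

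A few genes of NK cells and of cytotoxicity rose, at shares near the 22.2% of all tested genes called higher. Of 12 NK cell genes, 4 were called higher and none lower, with a median of 0.26, and on plain totals 11 were lower, with a median of -1.46. Over all genes 87.4% were lower on plain totals, with a median of -1.83. Klrg1, an inhibitory receptor of mature NK and effector T cells, had 1.98, 2.44, 1.54, 1.57 and 2.29 scaled CPM in CD40 mAb libraries 1 to 5, against 0.703, 0.953, 0.921, 0.958 and 0.557 scaled CPM in vehicle libraries 1 to 5. The groups did not overlap, and the change was 1.27 ± 0.19 (adjusted p = 0.000122) on the scaled level and -0.50 ± 0.34 on plain totals (adjusted p = 0.157). Gzma, granzyme A, had 21.1, 34.2, 22.9, 28.7 and 24.5 scaled CPM with CD40 mAb, against 15.6, 16.1, 15.1, 14.2 and 10.98 with vehicle, without overlap, and changed by 0.87 ± 0.15 (adjusted p = 0.00044) and by -0.97 on plain totals. The other called NK cell genes were Itga2, an integrin that platelets share, at 0.85 ± 0.22 and -0.97 on plain totals, the factor Tbx21, at 0.50 ± 0.18 and -1.29, and the receptor gene Klrd1, at 0.40 ± 0.13 and -1.35. The Tbx21 call was lost without any 1 of CD40 mAb libraries 3, 4 and 5 and vehicle libraries 4 and 5 (adjusted p up to 0.113), and that of Klrd1 without CD40 mAb library 2 or vehicle library 3 (adjusted p up to 0.0622). Granzyme B, Gzmb, rose by 1.32 ± 0.31 (adjusted p = 0.00473) on the scaled level and changed by -0.66 on plain totals. The defining NK receptor Ncr1 was not called (0.12 ± 0.19, adjusted p = 0.65). Of 11 cytotoxic effector genes, 3 were called higher, or 7 without CD40 mAb library 1. The 3 were the granzymes and Nkg7, a granule membrane protein, at 0.34 ± 0.12 and -1.45 on plain totals. The Nkg7 call was lost with the haemoglobin genes removed (adjusted p = 0.0506) and without any 1 of CD40 mAb libraries 2, 3 and 4 and vehicle libraries 1, 4 and 5 (adjusted p up to 0.1).

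Genes of CD40 signaling moved in both directions, and mouse Cd40 was not called. Cd40 (ENSMUSG00000017652, chromosome 2, 165055627 to 165072948), the mouse receptor gene, had 3.16, 3.66, 2.77, 2.15 and 2.4 scaled CPM in CD40 mAb libraries 1 to 5, against 3.87, 3.07, 3.07, 3.83 and 3.64 scaled CPM in vehicle libraries 1 to 5. The groups overlapped, and the change of -0.29 ± 0.14 was not called (adjusted p = 0.122), although without CD40 mAb library 2 it was, at -0.39 (adjusted p = 0.048). On plain totals the change was -2.07 ± 0.34 (adjusted p = 1.64e-06), beside -1.83 over all genes. Of 19 signaling and target genes, 3 were called higher and 4 lower, beside 22.2% and 12.4% over all genes, with a median of 0.09, which was -1.72 on plain totals. Without CD40 mAb library 1 the list had 8 higher and 4 lower, with a median of 0.21, and with the haemoglobin genes removed 3 and 5. Over all genes, the fit without library 1 called 3124 higher and 2309 lower of 12188. Cd80, a costimulatory ligand that CD40 induces, had 0.73, 0.954, 1, 1.16 and 2.29 scaled CPM with CD40 mAb, against 0.458, 0.501, 0.478, 0.424 and 0.516 with vehicle, without overlap, and changed by 1.34 ± 0.26 (adjusted p = 0.00106) and by -0.49 ± 0.36 on plain totals (adjusted p = 0.188). Its partner Cd86 was not called (0.09 ± 0.22, adjusted p = 0.777). The others that rose were the survival genes Bcl2l1, by 2.09 ± 0.31, which red cell precursors express strongly, and Bcl2a1b, by 0.77 ± 0.26 on the scaled level with -1.08 on plain totals. The Bcl2a1b call was lost without any 1 of CD40 mAb libraries 2, 3 and 5 and vehicle libraries 1, 3 and 5 (adjusted p up to 0.135).

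The 4 lower genes were the receptor adaptors Traf3, Traf5 and Traf6 and the inhibitor of apoptosis Birc3, with changes of -0.35 ± 0.11, -0.54 ± 0.16, -0.31 ± 0.12 and -0.30 ± 0.11. The Birc3 call was lost without any 1 of CD40 mAb libraries 2 and 4 and vehicle libraries 1, 3, 4 and 5 (adjusted p up to 0.104), and that of Traf3 without CD40 mAb library 3 or vehicle library 3 (adjusted p up to 0.0607). That of Traf6 was lost without any 1 of CD40 mAb libraries 2, 4 and 5 and vehicle libraries 1, 2, 3 and 5 (adjusted p up to 0.102). Of 12 NF-kappaB subunits and feedback inhibitors, 1 was called higher, Tnip1 at 0.55 ± 0.13 and -1.31 on plain totals, and 2 lower, the subunit genes Nfkb1 at -0.47 ± 0.12 and Rel at -0.46 ± 0.16, the call of which was lost without any 1 of CD40 mAb libraries 2, 4 and 5 and vehicle libraries 3, 4 and 5 (adjusted p up to 0.0934). With CD40 mAb library 1 left out, 2 were higher and 2 lower. Inflammatory cytokine and chemokine genes were mostly too low to test or were not called. Of 11 that were tested of 20 listed, 1 was called higher, Il1b at 1.04 ± 0.35 (adjusted p = 0.0305) and -0.89 on plain totals, and none lower. Without CD40 mAb library 1, 4 were called higher. The Il1b call was lost without any 1 of CD40 mAb libraries 4 and 5 and vehicle libraries 2, 3, 4 and 5 (adjusted p up to 0.0903). Tnf (0.76 ± 0.61, adjusted p = 0.353) and the interferon-induced chemokine Cxcl10 (1.18 ± 0.60, adjusted p = 0.14) were not called, and Cxcl10 passed without CD40 mAb library 1, at 1.57 (adjusted p = 0.0145).

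The response to CD40 mAb was then set against that of blood from ATOR-4066-treated mice. In the same fit 1593 genes (13.1%) differed between CD40 mAb and ATOR-4066, 1312 of them higher (10.8%) and 281 lower (2.31%) with CD40 mAb, while on plain totals 383 were higher and 2324 lower. Haemoglobin shares of the antibodies overlapped, at 77.5 to 81.2% with CD40 mAb and 78.1 to 88.2% with ATOR-4066. The summed level of the type I interferon genes was 1271 to 23642 scaled CPM with CD40 mAb, against 883 to 1996 with ATOR-4066, with library 1 the only CD40 mAb library inside the ATOR-4066 range. Isg15 had 122, 4247, 900.2, 6461 and 2813 scaled CPM in CD40 mAb libraries 1 to 5, against 192, 128, 96.4 and 84.2 in the 4 ATOR-4066 libraries, a difference of 4.54 ± 0.84 (adjusted p = 0.00526), with library 1 again inside the ATOR-4066 range. Atf5 differed by 5.53 ± 0.87 (adjusted p = 0.00526), Apol11b by 3.73 ± 0.65 (adjusted p = 0.00526), Gbp2 by 4.40 ± 0.93 (adjusted p = 0.00787) and Rhag by 3.63 ± 0.69 (adjusted p = 0.00575). By list, 19 of 20 erythroid, 12 of 20 type I interferon and 12 of 16 interferon-gamma GTPase genes were higher with CD40 mAb. Cd79b had 37.1, 19.4, 23.5, 13.9 and 19.4 scaled CPM with CD40 mAb, against 40.4, 34.97, 42.1 and 39.3 with ATOR-4066, a difference of -0.79 ± 0.22 (adjusted p = 0.0219), and 6 of 17 B cell genes and 6 of 10 MHC class II genes were lower with CD40 mAb. Fn1 differed by -1.48 ± 0.31 (adjusted p = 0.00605). None of 15 platelet genes was called between the antibodies, with Itga2b at 0.48 ± 0.30 (adjusted p = 0.336), and none of 18 T cell genes, by edgeR, DESeq2 or voom. At an unadjusted p under 0.05 in edgeR there were 0 platelet genes and 1 T cell gene. Leaving out CD40 mAb library 1 raised the calls to 3026, and leaving out ATOR-4066 library 4 or 5 lowered them to 914 or 1003. This comparison uses the same CD40 mAb libraries as the one against vehicle, so the sets of values are not independent.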

How the data were processed

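RNA of 14 blood samples was sequenced, per the labels' protocols from stranded mRNA libraries, and the authors deposited a table of estimated counts per gene for all 52 libraries, made with salmon per the table's name. The submitters' processing notes name STAR and the build GRCm38, and the sources used here do not give the annotation, the settings or how these tools were combined. The table has 57010 genes, and 6.23% of the blood values were fractional and were rounded to whole counts. No column was left unmapped.

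Counts were analysed in R 4.3.3 with edgeR 4.0.16 (robust quasi-likelihood test, TMM scaling, Benjamini-Hochberg adjustment, threshold 0.05), limma 3.58.1 and DESeq2 1.42.0 as alternatives. Genes with at least 10 counts in enough libraries of a group's size and 15 in total (filterByExpr) were kept, which left 12184. All 14 blood libraries entered one fit without covariates, and standard errors are the log2 change over the square root of F. The same steps, run on simulated data with known changes, recovered most of them with the right sign. The simulation had equal numbers of rises and falls and no shift in composition between groups, so it does not test the choice of scale. The haemoglobin genes were kept in or removed from library sizes as named. The haemoglobin share was compared by an exact two-sided permutation test. No 2 libraries were identical. Nothing in the labels used here says that each library came from its own animal, so p-values measure only the spread between these samples.

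The gene lists were chosen with earlier results of these data known. Named by rule were the 15 largest rises and the 15 largest falls among called genes that average 1 or more in log2 CPM, predicted genes and pseudogenes left out, and the 4 members of smallest p of each of 33 lists; 8 more lists, and every other gene named, were chosen after their values were seen, as was the motif of the amino acid response element. Gene positions are those of GENCODE vM21 on GRCm38, matched by identifier, and promoters are those of RefSeq on GRCm38.p6 (300 bases, first listed start site of a gene). Members of near-identical families (Hba, Hbb, Hbq1, Gbp, Tgtp, Apol11, Oas1) share reads, so that their single values are uncertain. Results for a few genes are not reported here.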

Additional observations from a re-analysis of the deposited data

Results flagged for a closer look

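Each value below lay far from the other 4 libraries of its group, with a gap to the nearest that exceeds the 95% limit of Dixon's test. Of 318 groups of values tested 19 did so, and chance alone sets apart about 1 in 20. No explanation was tested. Vehicle library 1 had 44.1 M total counts, against 35.1 to 35.6 M in the other vehicle libraries. CD40 mAb library 1 had 19.9 scaled CPM for Apoe (the others 4.3 to 7.64), 0.669 scaled CPM for Cd209a (the others 0 to 0.0546), 26.5 scaled CPM for Fcer2a (the others 6.54 to 12.04) and 109 scaled CPM for H2-Aa (the others 47.6 to 60.9). CD40 mAb library 2 had 2.81 scaled CPM for C1qb (the others 0.0608 to 0.764) and 9.06 scaled CPM for Nkg7 (the others 6.93 to 7.53). CD40 mAb library 4 had 2.98 scaled CPM for Ccr2 (the others 8.51 to 10.1). CD40 mAb library 5 had 2.29 scaled CPM for Cd80 (the others 0.73 to 1.16). Vehicle library 1 had 34.6 scaled CPM for Il1b (the others 12.5 to 15.4). Vehicle library 2 had 8.96 scaled CPM for Fcgr2b (the others 9.79 to 10.1), 6.62 scaled CPM for Gbp2 (the others 4.4 to 5.03), 6.83 scaled CPM for Pcna (the others 5.15 to 5.4) and 8.51 scaled CPM for Tnip1 (the others 7.1 to 7.43). Vehicle library 3 had 0.99 scaled CPM for Ccdc92b (the others 0.258 to 0.448), 0.119 scaled CPM for Clec4n (the others 0.218 to 0.258), 688 scaled CPM for Gpx1 (the others 412 to 470.1) and 324 scaled CPM for Slc4a1 (the others 156 to 198). Vehicle library 5 had 1.03 scaled CPM for Tbx21 (the others 1.6 to 1.77).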

How the results depend on the processing

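Against vehicle 4219 genes were called. The count was 10972 on plain totals, 10483 on plain totals without haemoglobin genes, and 11163 on plain totals without CD40 mAb library 1, and it ranged over 3434 to 5433 when single libraries were left out. Other counts were 4356 with haemoglobin genes removed, 4390 with other erythroid genes removed as well, 4145 with relative log expression scaling, 4301 of 25068 genes without a filter on low counts, 3989 with only CD40 mAb and vehicle, 4561 with DESeq2 and 4601 with voom and sample weights. Against ATOR-4066 the count of 1593 became 2707 on plain totals, 9060 on plain totals without haemoglobin genes, 8917 on plain totals without CD40 mAb library 1, 1608 with haemoglobin genes removed and 1979 with DESeq2, and it ranged over 914 to 3026 when single libraries were left out. The haemoglobin share differed by 4.65 to 6.19 percentage points when single libraries were left out. Library numbers occur in both groups but were not taken to pair animals. The correlations of deviations between same-numbered libraries were 0.119, 0.136, -0.058, -0.119 and 0.017, and the fit with the replicate number as a block called 3265 genes. The signs of the list medians changed in 24 of 41 lists on plain totals and in 20 of 40 without haemoglobin genes, and in none with relative log expression scaling or DESeq2. They changed in 3 lists without the filter, 2 with only CD40 mAb and vehicle, 3 with the replicate block and 1 with voom. With haemoglobin and other erythroid genes removed 2 of 38 changed, and 1 to 4 did when single CD40 mAb or vehicle libraries were left out.

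A change of sign was counted only where a gene was called in the main fit or in the alternative. Of 156 genes named, 41 changed sign in this way on plain totals, 33 of 150 on plain totals without haemoglobin genes and 41 on plain totals without CD40 mAb library 1. By the same count none changed sign under the alternatives that kept TMM or a like scaling. Genes called in neither fit could change sign without being counted. By construction, plain totals move every gene by about the same amount, the median shift of all genes being -1.77. On plain totals the log2 changes were -0.19 for B2m, -1.08 for Bcl2a1b, -1.89 for Cd177, -0.30 for Cd274, -1.49 for Cd28, -0.49 for Cd80, -1.72 for Cd86, -0.41 for Cxcr2, -0.69 for Fcgr4, -0.22 for Fscn1, -0.59 for Fth1, -0.31 for Ftl1, -0.97 for Gzma, -0.66 for Gzmb, -0.97 for H2-D1, -1.37 for H2-K1, -0.85 for H2-T23, -0.0344 for Hba-a1, -0.36 for Hbb-y, -0.22 for Hbq1a, -0.74 for Ifit2, -0.89 for Il1b, -1.33 for Irf1, -0.97 for Itga2, -0.52 for Itga2b, -1.33 for Itgax, -1.35 for Klrd1, -0.50 for Klrg1, -0.98 for Ly6c2, -1.67 for Mx1, -1.66 for Ncr1, -1.45 for Nkg7, -1.72 for Pcna, -1.02 for Pf4, -1.84 for Psat1, -0.59 for Slc40a1, -1.56 for Tap1, -1.29 for Tbx21, -1.31 for Tnip1, -0.20 for Treml1 and -1.12 for Xbp1. Without haemoglobin genes in the totals they were -0.73 for Bcl2a1b, -1.56 for Cd177, -1.12 for Cd28, -0.16 for Cd80, -1.37 for Cd86, -0.0776 for Cxcr2, -0.35 for Fcgr4, -0.24 for Fth1, -0.61 for Gzma, -0.32 for Gzmb, -0.62 for H2-D1, -1.004 for H2-K1, -0.49 for H2-T23, -0.38 for Ifit2, -0.55 for Il1b, -0.97 for Irf1, -0.59 for Itga2, -0.15 for Itga2b, -0.98 for Itgax, -0.98 for Klrd1, -0.14 for Klrg1, -0.65 for Ly6c2, -1.32 for Mx1, -1.27 for Ncr1, -1.08 for Nkg7, -1.35 for Pcna, -0.65 for Pf4, -1.49 for Psat1, -0.27 for Slc40a1, -1.20 for Tap1, -0.94 for Tbx21, -0.96 for Tnip1 and -0.76 for Xbp1. Without CD40 mAb library 1 they were -0.14 for B2m, -1.10 for Bcl2a1b, -1.77 for Cd177, -0.15 for Cd274, -1.79 for Cd28, -0.52 for Cd80, -1.82 for Cd86, -0.34 for Cxcr2, -0.64 for Fcgr4, -0.0926 for Fscn1, -0.61 for Fth1, -0.32 for Ftl1, -1.13 for Gzma, -0.52 for Gzmb, -0.9965 for H2-D1, -1.58 for H2-K1, -0.85 for H2-T23, -0.0482 for Hba-a1, -0.31 for Hbb-y, -0.20 for Hbq1a, -0.72 for Ifit2, -0.89 for Il1b, -1.46 for Irf1, -1.13 for Itga2, -0.54 for Itga2b, -1.40 for Itgax, -1.71 for Klrd1, -0.77 for Klrg1, -0.83 for Ly6c2, -1.52 for Mx1, -2.07 for Ncr1, -1.69 for Nkg7, -1.95 for Pcna, -1.11 for Pf4, -1.89 for Psat1, -0.54 for Slc40a1, -1.66 for Tap1, -1.46 for Tbx21, -1.39 for Tnip1, -0.34 for Treml1 and -1.13 for Xbp1. The depth of 6.31 to 8.63 M counts outside haemoglobin in the CD40 mAb libraries limits genes of low level most.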

Other observations

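Macrophage genes, nearly absent from resting blood, moved in both directions at low levels. Timd4, a receptor for dying cells on resident macrophages of spleen, liver and body cavities, had 0.365, 0.689, 0.363, 0.828 and 0.437 scaled CPM in CD40 mAb libraries 1 to 5, against 0.149, 0.226, 0.119, 0.0121 and 0.122 in vehicle libraries 1 to 5, and changed by 2.03 ± 0.51 (adjusted p = 0.00593), with 0.21 ± 0.48 on plain totals (adjusted p = 0.675). C1qb, a subunit of complement C1q, had 0.0608, 2.81, 0.545, 0.745 and 0.764 scaled CPM with CD40 mAb, against 0.0533, 0.0646, 0.0341, 0.0121 and 0.095 with vehicle, and changed by 4.14 ± 1.07 (adjusted p = 0.00849) and by 2.18 ± 1.08 on plain totals (adjusted p = 0.072). Mrc1, the mannose receptor, was lower in all 5 CD40 mAb libraries, at 0 to 0.159 scaled CPM, against 0.222 to 0.407 with vehicle, and its call was lost without CD40 mAb library 3 or 5 (adjusted p up to 0.0586). Of the 6 macrophage genes tested, 3 were called higher and 2 lower, the other higher one being the iron exporter gene Slc40a1 (1.27 ± 0.32 on the scaled level, -0.59 on plain totals), which red cells also express, and the other lower one Adgre1, which encodes F4/80, at -0.47 ± 0.16. The Adgre1 call was lost without any 1 of CD40 mAb libraries 2, 4 and 5 and vehicle libraries 1, 2 and 4 (adjusted p up to 0.0887). The ferritin genes Ftl1 and Fth1, of a list of iron-handling genes with 4 of 7 called higher, rose by 1.61 ± 0.32 and 1.34 ± 0.29 on the scaled level and changed by -0.31 and -0.59 on plain totals.

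Receptors for the Fc part of IgG split by sign. Fcgr2b, the inhibitory receptor of B cells and myeloid cells, had 7.48, 6.78, 5.13, 3.23 and 5.78 scaled CPM with CD40 mAb, against 9.79, 8.96, 9.91, 9.96 and 10.1 with vehicle, without overlap, and changed by -0.76 ± 0.16 (adjusted p = 0.0014). Fcgr4, an activating receptor of monocytes and neutrophils, had 2.71, 6.04, 5.41, 5.38 and 9.39 scaled CPM with CD40 mAb, against 2.14, 3.6, 2.1, 2.75 and 1.96 with vehicle, and changed by 1.19 ± 0.26 (adjusted p = 0.00231) on the scaled level and by -0.69 ± 0.31 on plain totals. Clec4n, a lectin that recognises fungi, rose by 2.53 ± 0.51, and in all 6 of 11 genes of this list were called higher and 1 lower. Hdc, the enzyme that makes histamine and that basophils and some neutrophils express, rose by 2.01 ± 0.38 on the scaled level with 0.02 ± 0.31 on plain totals. Of 83 ribosomal protein genes, 52 were called higher on the scaled level (median 0.75) and 76 lower on plain totals (median -1.18). Over all genes 87.4% were lower on plain totals (median -1.83). Other lists had the following calls on the scaled level, beside 22.2% higher and 12.4% lower over all genes. Without CD40 mAb library 1, 3124 of all 12188 genes tested were higher and 2309 lower. With the haemoglobin genes removed, 2635 of 12185 were higher and 1721 lower. Leukocyte trafficking genes had 4 higher and 3 lower of 16 (without CD40 mAb library 1, 6 and 5, and with the haemoglobin genes removed, 4 and 4), and T cell checkpoint genes 2 higher and 0 lower of 12 (without CD40 mAb library 1, 3 and 1). Hypoxia and glycolysis genes had 3 higher and 1 lower of 14 (without CD40 mAb library 1, 5 and 1), and eosinophil, basophil and mast cell genes 2 higher and 0 lower of 9 (without CD40 mAb library 1, 2 and 1). Immediate early and heat shock genes had 3 higher and 0 lower of 14 (without CD40 mAb library 1, 3 and 0, and with the haemoglobin genes removed, 3 and 1), and mitochondrially encoded subunits 4 higher and 0 lower of 13 (without CD40 mAb library 1, 5 and 0, and with the haemoglobin genes removed, 2 and 0). The vehicle group was not uniform for immediate early genes. Vehicle library 1 had 77.1 scaled CPM for Fos, against 18 to 21.3 in the other vehicle libraries. For Egr1 it had 37.4, against 3.06 to 5.06. The heat shock genes of the list were not above the other vehicle libraries in it. Fos and Egr1 were not among the values tested for the closer look, nor in the counts of genes named.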
